A study of Mus musculus with 30 samples.

Results

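Sterol and lipid synthesis was followed through 31 named genes in the microglia of mice with floxed alleles of *Bin1*, which encodes a protein that binds and curves membranes. The genes were chosen by name and comprised 18 enzymes of cholesterol synthesis, 7 genes that control the pathway through the sterol regulatory element binding proteins (SREBP) or handle sterols, 4 genes of fatty acid synthesis, and 2 genes of cholesterol efflux and esterification. All 31 were found among the 47643 genes listed, and all 31 passed the filter on low values together with 16866 other genes, which makes 16897 genes tested. *Scd1* passed only through its highest libraries, since its mean of 0.112 FPKM falls below the minimum of 0.1 without Het-M-0108 (0.0970) or without Homo-M-0109 (0.0965). The rule goes by gene name and uses no measured value, but the list was chosen with earlier results of these data known.

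Libraries came from 30 mice, 1 library for each mouse, of which 9 were WT (5 males, 4 females), 11 were Het (6 males, 5 females) and 10 were Homo (5 males, 5 females). As the study names the genotypes of these libraries, Homo mice were Bin1 flox/flox::Cx3Cr1-Cre+, Het mice were Bin1 wt/flox::Cx3Cr1-Cre+, and the WT littermates were Bin1 wt/flox::Cx3Cr1-Cre-, all 3 months old, with microglia sorted by flow cytometry. The loss of 1 *Bin1* copy and the presence of Cre therefore came together in Het mice and cannot be told apart. Cre is driven by a gene that microglia and other macrophages use. Homo mice carry Cre too, so the loss of both copies and Cre cannot be told apart in Homo against WT. Among the comparisons of genotypes, only Homo against Het sets mice with Cre beside mice with Cre. The growth protocol among the labels describes cultured microglia of newborn pups instead, and the description in the study was followed here. Values are FPKM (fragment counts scaled to transcript length and to the mapped fragments of a library), divided here by 1 scale factor for each library, and are called scaled FPKM. The scale factors lay between 0.944 and 1.15.

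Cholesterol is built from acetyl-CoA by way of mevalonate and squalene, and the enzymes of the whole route are controlled together. When membranes of the endoplasmic reticulum hold little sterol, Scap carries the SREBP precursors to the Golgi, where they are cut and released to act in the nucleus. When sterol is plentiful, Insig1 and Insig2 hold Scap back. Microglia can make sterol of their own and also take up sterol from myelin and dying cells, which they esterify through Soat1 or export through transporters such as Abcg1.

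The SREBP bind sterol response elements in promoters, commonly beside sites for NF-Y and Sp1. RefSeq promoters of build GRCm38.p6 were given for 24 of the 31 genes (not for *Stard4*, *Abcg1*, *Fdps*, *Scd2*, *Sqle*, *Scd1* and *Fdft1*), and the 250 bases before each start site were searched on both strands for TCACNCCAC, CCAAT and GGGCGG. The windows of 3 genes are shown because *Insig1* and *Hsd17b7* are the members described most closely below and because *Hmgcs1*, the enzyme that commits acetyl-CoA units to the route, was the only member with the sterol response element motif. Capitals mark that motif and the NF-Y motif, which reads ATTGG on the other strand.
Hmgcs1, chr13:119690174-119690262, plus strand: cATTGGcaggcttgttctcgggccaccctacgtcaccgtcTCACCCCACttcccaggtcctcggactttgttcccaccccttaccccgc
Insig1, chr5:28071162-28071240, plus strand: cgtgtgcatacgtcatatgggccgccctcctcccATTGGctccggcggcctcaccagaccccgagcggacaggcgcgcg
Hsd17b7, chr1:169969246-169969410, minus strand: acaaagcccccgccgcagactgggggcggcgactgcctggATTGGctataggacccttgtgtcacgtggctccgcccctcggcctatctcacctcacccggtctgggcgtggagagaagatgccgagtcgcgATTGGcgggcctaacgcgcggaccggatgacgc

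The sterol response element motif was present in 1 of the 24 genes with a promoter searched and in 1.25% of the 10661 genes tested that had one. CCAAT was present in 21 of the 24 genes, against 40.5% of those 10661 genes. GGGCGG was present in 20 of the 24, against 61.1%. Over all 32851 promoters searched the shares were 1.05%, 33.8% and 32.7%. These are matches of letters only, and a missing match says nothing of binding by the factor.

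Checks of the libraries bear on what follows. *Bin1* was 261 ± 21.1 scaled FPKM (SD, n = 5) in WT males, 116 ± 39.3 (n = 6) in Het males and 47.3 ± 4.81 (n = 5) in Homo males. In females it was 257.3 ± 14.8 (n = 4), 136 ± 52.5 (n = 5) and 41.8 ± 1.79 (n = 5). Het-M-0199, at 52.1, and Het-F-0206, at 42.7, were as low as Homo libraries of the same sex. *Cx3cr1*, whose locus drives Cre, was 13.9 scaled FPKM in Het-F-0206 and at least 528 in each of the other libraries. In males it was 1796 to 2429 in WT, 528 to 1270 in Het and 657 to 1137 in Homo. In females it was 2019 to 2184 in WT, 13.9 to 1316 in Het and 1076 to 1284 in Homo. Every Cre-positive library thus lay below every WT library of its sex. The microglial genes *P2ry12* and *Tmem119* were high in every group, with group means from 1781 to 4718 scaled FPKM. The mouse numbers fall into an early set, WT-F-0122 and below, and a late set, WT-M-0176 and above, and 3 of 5 Homo males, 2 of 6 Het males, 1 of 4 WT females and 0 of 5 WT males were early. Relative depth, for which the step that 1 fragment makes in weakly expressed genes was used, ranged from 0.684 to 1.37 of the median library.

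The 31 genes spanned a wide range of levels in microglia. *Mylip*, a ubiquitin ligase that removes lipoprotein receptors from the cell surface, stood highest, with a median of 97.03 scaled FPKM over the 9 WT libraries, and did not overlap the next gene. *Ebp*, a sterol isomerase of the late pathway, followed at 43.9, then *Abcg1* at 35.6, *Insig2* at 33.4, *Soat1* at 30.8, *Msmo1*, which oxidizes methyl groups of the sterol ring, at 30.1, the desaturase *Scd2* at 25.5 and *Scap* at 23.8. A gap without overlap separated *Scap* from *Srebf1* at 15.1. *Fdps*, which makes farnesyl diphosphate, had 14.1, *Sc5d* 13.7, *Dhcr7* 12.9 and *Hmgcs1* 11.7, and these 5 neighbours overlapped in turn.

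Below these came *Acat2* at 8.72, *Tm7sf2* at 7.36, *Nsdhl* at 7.15, *Pmvk* at 6.46, *Srebf2* at 5.12 and *Cyp51* at 4.81. The squalene synthase *Fdft1* had 3.72, *Mvd* 3.49, *Idi1* 3.44, *Fasn* 2.81, *Insig1* 2.81, *Lss* 2.60 and *Mvk* 2.47. Lowest of the enzymes of sterol synthesis were the ketoreductase *Hsd17b7* at 1.21 and the squalene epoxidase *Sqle* at 0.968, with *Acaca* at 1.40 and the sterol carrier *Stard4* at 1.13 beside them. *Scd1* stood alone at 0.0433 and was listed at 0 in 2 Het females, whereas *Scd2*, which lies near it on chromosome 19, was among the higher genes in every library. The plot of all levels shows that most genes varied little between libraries compared with the distance from *Mylip* to *Scd1*.

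**Figure D1:**
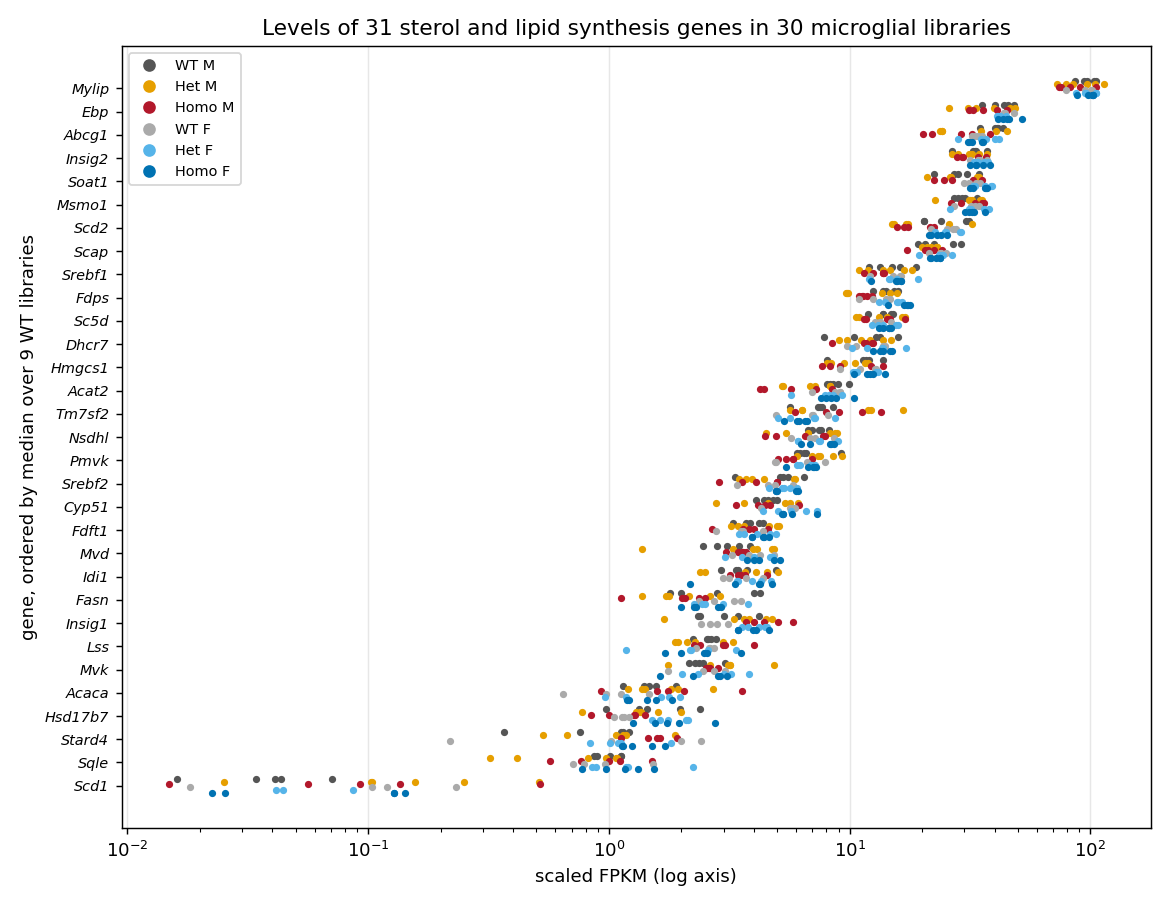
Scaled FPKM (log axis) of the 31 genes in 30 libraries, 1 point for each library, coloured by group and ordered by the median over the 9 WT libraries. *Mylip* lies at the top, from 72.5 to 114, and *Scd1* at the bottom, where its 2 values of 0 cannot be drawn.

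The first question was whether Homo or Het microglia differed from WT in these genes, in each sex. None was called at an adjusted p below 0.05 (limma, Benjamini-Hochberg over 16897 genes). In males, 0 of 31 genes were called in Homo against WT, where 2.82% of all genes were called, and 0 of 31 in Het against WT, where 0.172% were. In females, 0 of 31 were called in Homo against WT, with a background of 0.071%, and 0 of 31 in Het against WT, with a background of 0.136%. Between Homo and Het mice 0 of 31 were called in males (background 0%) and 0 of 31 in females (0.0118%), and 0 of 31 between WT males and WT females (0.0473%).

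At an unadjusted p below 0.05, 1 gene was higher in Homo males (*Insig1*, background 12%) and 5 were lower (*Acat2*, *Abcg1*, *Scd2*, *Fdps* and *Fasn*, background 10.5%). In Het males 1 was higher (background 7.47%), *Scd1*, from which nothing is read because it was tested only through Het-M-0108 and Homo-M-0109, and 4 were lower (*Acat2*, *Abcg1*, *Scd2* and *Fdps*, background 6.68%). In Homo females 3 were higher (*Fdps*, *Hsd17b7* and *Insig1*, background 2.31%) and 0 lower (1.17%). In Het females 2 were higher (*Hsd17b7* and *Insig1*, background 2.62%) and 0 lower (1.33%). Homo and Het of a sex share their WT libraries. *Pmvk*, a kinase of the mevalonate route, was lower in Homo than in Het males, by a log2 fold change of -0.38 (SE 0.134, adjusted p = 0.998), with values from 5.06 to 6.97 against 6.02 to 9.34.

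Intervals bound what could have been missed. The 95% confidence interval of the fold change lay wholly within 1.5-fold in either direction for 16 of 31 genes in Homo males (37.3% of all genes tested), 19 in Het males (43.9%), 19 in Homo females (49.2%) and 20 in Het females (49%). The median log2 fold change of the 31 genes was -0.07 in Homo males, -0.04 in Het males, 0.07 in Homo females and 0.06 in Het females, against medians over all genes of 0.03, 0.01, 0.00 and 0. For the 18 enzymes alone it was -0.07, -0.03, 0.09 and 0.07. The medians in Homo males changed sign, to 0.0586 for the 31 genes and 0.0885 for the enzymes, when mouse number range was a term. In the plot of fold changes the widest intervals belong to the low genes *Scd1*, *Stard4* and *Sqle*.

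**Figure D2:**
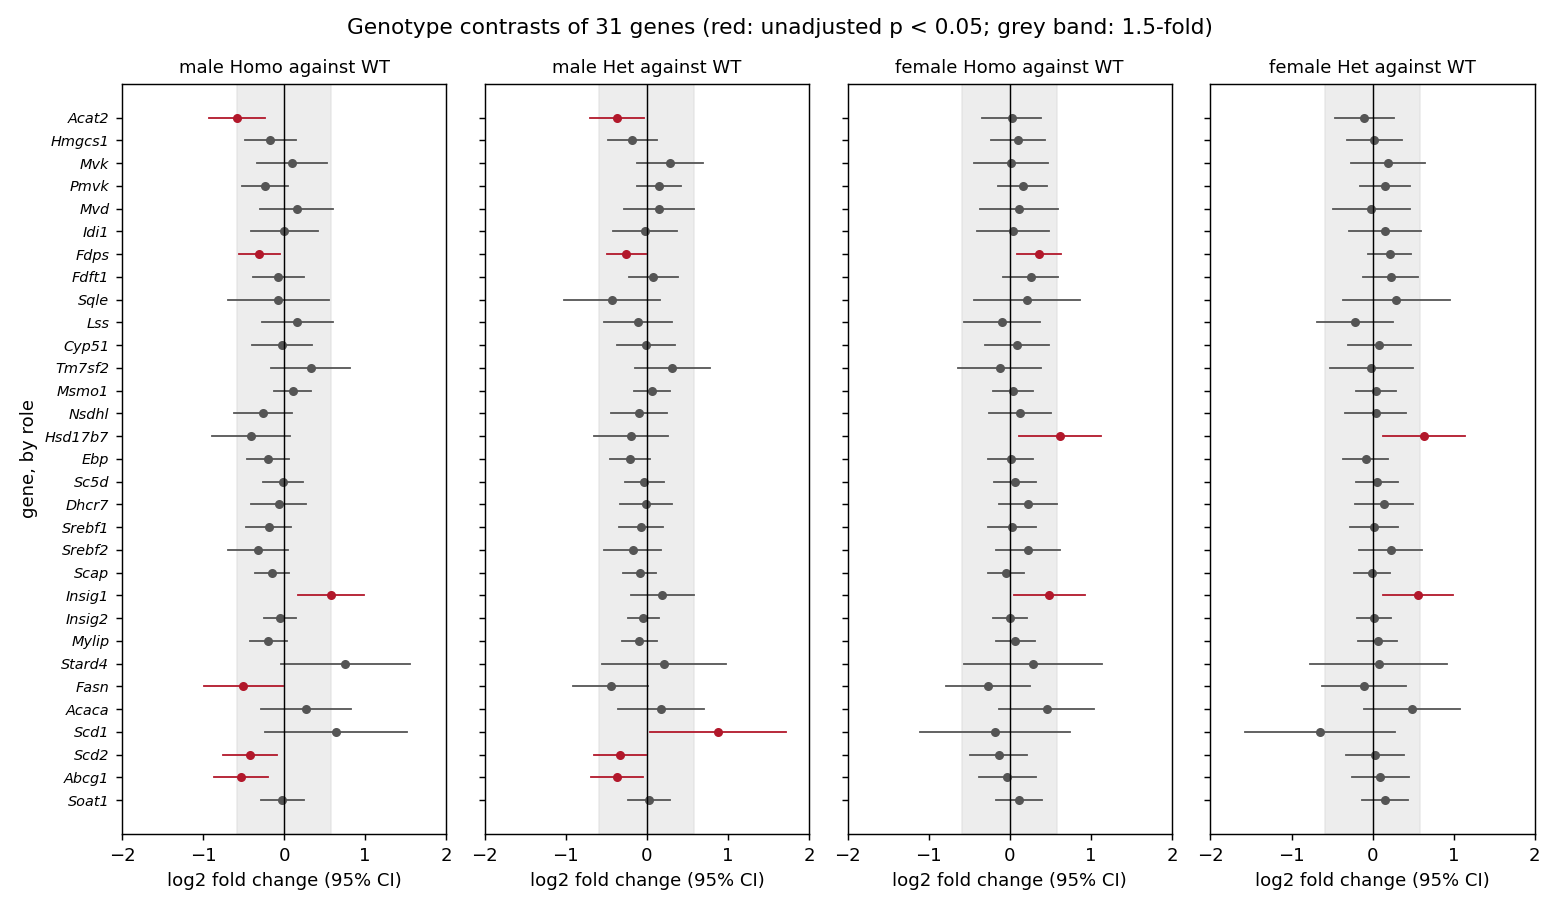
Log2 fold changes (x axis) of the 31 genes with 95% confidence intervals for Homo and Het against WT in each sex, from the fit over all 30 libraries. Red marks an unadjusted p below 0.05, which 6 genes have in Homo males, 5 in Het males, 3 in Homo females and 2 in Het females, and the grey band spans 1.5-fold in either direction.

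*Insig1* (chr5:28071363-28078662, plus strand), the anchor of Scap that is itself a target of the SREBP, was higher than WT in 4 of 4 contrasts. In WT males its values were 2.34, 2.40, 3.01, 3.45 and 4.20 scaled FPKM, and in Homo males they were 3.71, 4.02, 4.40, 5.05 and 5.84. The 2 groups overlapped through 1 WT library. Het males ranged from 1.69, in the early Het-M-0100, through a median of 3.72 to 4.77. On the log2 scale the difference from WT was 0.58 in Homo males (SE 0.200, adjusted p = 0.0918) and 0.19 in Het males (SE 0.191, adjusted p = 0.649).

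In females *Insig1* was 2.40, 2.64, 2.81 and 3.13 in WT, 3.57, 3.78, 4.22, 4.45 and 4.52 in Het, and 3.42, 3.43, 3.98, 4.08 and 4.62 in Homo. Every Cre-positive female lay above every WT female. The log2 fold change was 0.56 in Het (SE 0.212, adjusted p = 0.862) and 0.49 in Homo females (SE 0.212, adjusted p = 1), and Het and Homo females differed by -0.07 (SE 0.200). *Insig2*, its relative, had log2 fold changes of 0.00 in Homo and 0.02 in Het females, and the ratio of *Insig2* to *Insig1* within a library had a median of 13.2 in WT females, 8.89 in Het females and 8.24 in Homo females. In males the medians were 11.1, 7.78 and 7.39.

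*Hsd17b7* (chr1:169949535-169969241, minus strand), a reductase of the late pathway, was 1.05, 1.14, 1.15 and 1.21 in WT females. It was 1.51, 1.62, 1.76, 2.10 and 2.14 in Het females and 1.26, 1.56, 1.74, 1.95 and 2.75 in Homo females, so that neither group overlapped the WT females. These are low values, with a median over all WT libraries of 1.21 beside 1.13 for *Stard4* and 0.968 for *Sqle*. The number of fragments behind them is unknown. The log2 fold changes were 0.63 in Het (SE 0.248, adjusted p = 0.946) and 0.62 in Homo females (SE 0.248, adjusted p = 1). In males the order was the other way, with 0.972 to 2.40 in WT and 0.844 to 1.42 in Homo, and a log2 fold change of -0.41 (SE 0.234, adjusted p = 0.301). These groups overlapped widely. With number range as a term the male log2 fold change was -0.47 (SE 0.265), and among late mice it was -0.18 (SE 0.302).

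Without overlap between groups were 2 of 31 genes in Homo females and 2 of 31 in Het females, *Hsd17b7* and *Insig1* in both, against 2.32% and 2.24% of all genes. In Homo males it was 1 of 31, *Fdps*, against 4.01%, and in Het males 0 of 31, against 0.811%.

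*Fdps* (chr3:89093588-89101959, minus strand) makes farnesyl diphosphate, from which both sterols and the lipid anchors of small GTPases are built. WT males had 12.5, 13.7, 14.2, 15.3 and 15.9, and Homo males had 10.9, 11.2, 11.3, 11.8 and 12.4. Het males had 9.64 and 9.80 in the early mice, 9.72 in the late Het-M-0203, and 13.7, 14.7 and 15.8 in the other late mice. Homo males differed from WT by a log2 fold change of -0.31 (SE 0.123, adjusted p = 0.140) and Het males by -0.25 (SE 0.118, adjusted p = 0.340). In females the values were 10.9 to 14.8 in WT, 13.2 to 16.5 in Het and 14.5 to 17.8 in Homo, with a log2 fold change of 0.36 in Homo (SE 0.131, adjusted p = 1).

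The sexes were compared directly by the difference of the Homo effects, male minus female. Of 31 genes, 0 were called (background 0%), and the same holds for Het (0%). At an unadjusted p below 0.05, 5 genes had a lower Homo effect in males than in females (background 4.4%) and 0 a higher one (4.88%). They were *Fdps*, at a log2 difference of -0.67 (SE 0.180, adjusted p = 0.495), *Hsd17b7*, at -1.02 (SE 0.340, adjusted p = 0.497), *Acat2*, at -0.61 (SE 0.244, adjusted p = 0.525), *Srebf2*, at -0.55 (SE 0.263, adjusted p = 0.535), and *Abcg1*, at -0.51 (SE 0.236, adjusted p = 0.528). *Srebf2*, the SREBP gene that chiefly drives cholesterol synthesis, had a mean of 5.16 ± 1.14 in WT males and 4.10 ± 0.928 in Homo males (SD, n = 5 each), against 4.66 ± 0.993 (n = 4) in WT females and 5.40 ± 0.588 (n = 5) in Homo females. The fitted log2 difference of *Srebf2* in Homo males was -0.32, against -0.04 with number range as a term and -0.01 among late mice.

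Early mice are nearly all Cre-positive males, so the differences between the sexes were fitted with number range as a term too. They were then -0.47 for *Fdps* and -1.11 for *Hsd17b7*, but -0.23 for *Acat2*, -0.15 for *Srebf2* and -0.12 for *Abcg1*, with SE of 0.186, 0.383, 0.228, 0.245 and 0.214. *Acat2*, *Srebf2* and *Abcg1* then no longer reached an unadjusted p below 0.05, and the adjusted p (limma) was 1.00 for each of the 5 genes.

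**Figure D3:**
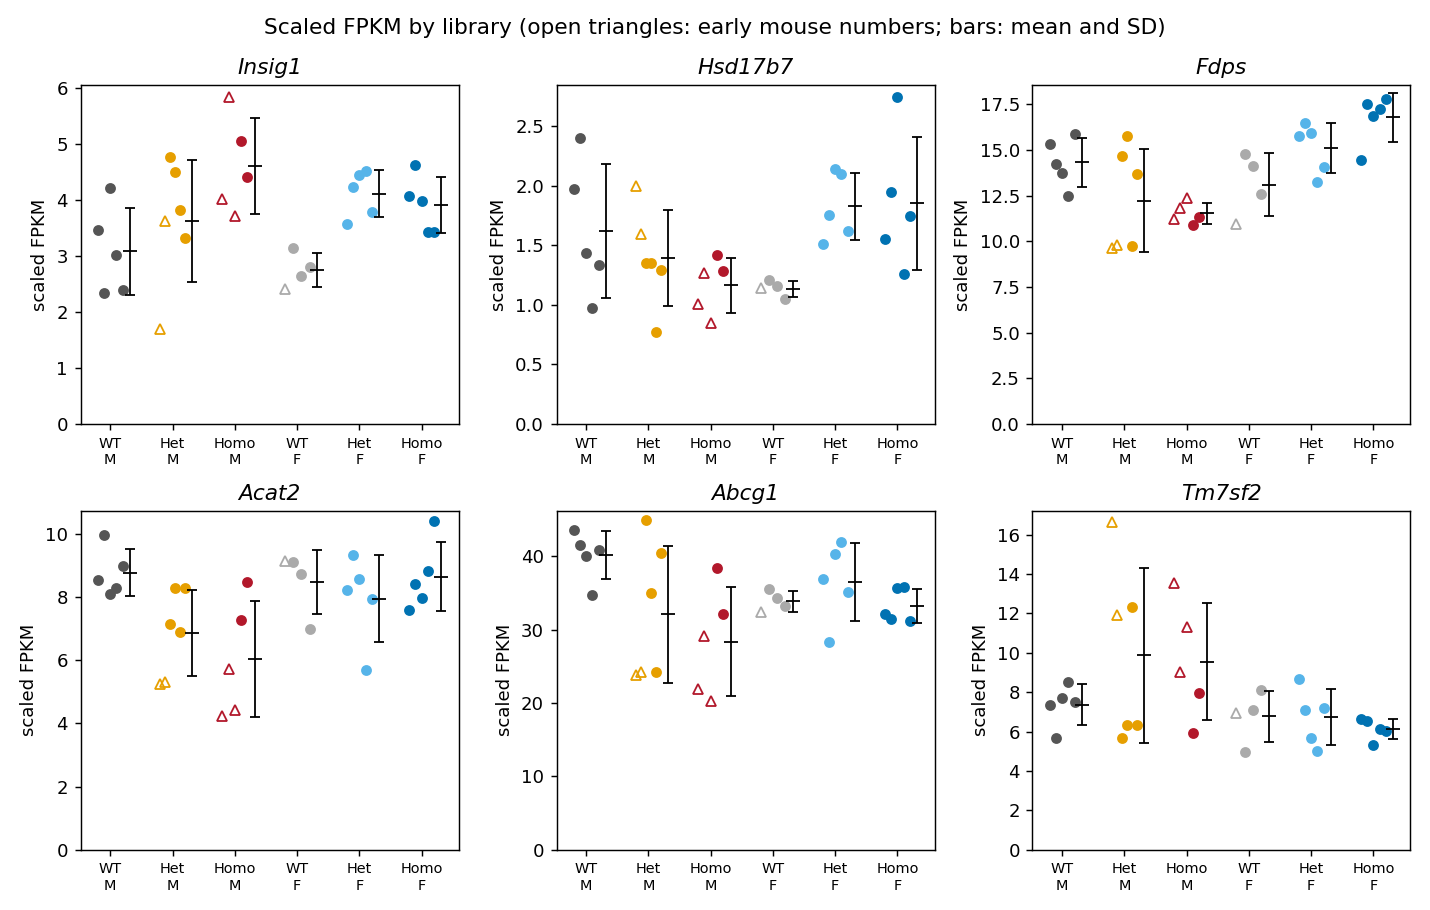
Scaled FPKM (y axis, from 0) of 6 genes in each library by genotype and sex, with open triangles for early mouse numbers and bars for the group mean and SD. *Insig1* and *Hsd17b7* lie higher in Het and Homo females than in WT females, and the early Homo males are the lowest Homo males for *Acat2* and *Abcg1* and the highest for *Tm7sf2*.

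*Acat2* (chr17:12942890-12960747, minus strand), the cytosolic thiolase that joins acetyl-CoA units, had the smallest p of the 31 genes in males. WT males had 8.08, 8.28, 8.52, 8.96 and 9.95 scaled FPKM. Homo males had 4.23, 4.41 and 5.71 in the 3 early mice and 7.27 and 8.47 in the 2 late mice. The 2 late values lay close to or within the WT range. Het males had 5.25 and 5.30 in the early mice and 6.88 to 8.29 in the late mice. The log2 fold change was -0.58 in Homo males (SE 0.167, adjusted p = 0.0538) and -0.37 in Het males (SE 0.160, adjusted p = 0.318). When number range was added as a term, the Homo value was -0.32 (adjusted p = 0.576), and among late mice alone it was -0.15 (adjusted p = 0.909). The Het values were -0.22 and -0.19. The neighbouring *Acat3*, a near copy, averaged 0.206 FPKM. In females *Acat2* was 6.99 to 9.13 in WT and 7.58 to 10.4 in Homo.

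*Abcg1* (chr17:31057675-31117988, plus strand), which exports sterol to lipoprotein particles, had 34.7, 40.1, 40.8, 41.5 and 43.5 in WT males. Early Homo males had 20.2, 21.9 and 29.1, and late ones had 32.1 and 38.4. In Het males the early mice had 23.9 and 24.2, and of the late mice Het-M-0203 also had 24.2 while the others had 35.0 to 44.9. This gave a log2 fold change of -0.54 in Homo males (SE 0.162, adjusted p = 0.0618) and -0.37 in Het males (SE 0.155, adjusted p = 0.311), and -0.26 (adjusted p = 0.649) in Homo males with number range as a term and -0.18 (adjusted p = 0.874) among late mice. In Het males these 2 values were -0.22 and -0.18. Females had 32.3 to 35.6 in WT, 28.3 to 41.9 in Het and 31.2 to 35.8 in Homo.

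*Insig1* behaved otherwise, with a log2 fold change in Homo males of 0.64 (SE 0.203, adjusted p = 0.361) among late mice and 0.80 (SE 0.209, adjusted p = 0.131) when number range was a term in the limma fit. In Het males the *Insig1* values were 0.42 and 0.31. For *Fdps* in Homo males the values were -0.35 and -0.17, and neither passed the adjusted threshold, while in Het males *Fdps* was at -0.10 among late mice. Against the fit without the term, 11 of the 31 genes changed sign in Homo males with number range as a term and 12 among late mice alone. They included *Hmgcs1*, *Sqle*, *Ebp* and *Soat1* in both.

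The calls in Homo males turned on single choices. Without Homo-M-0189, without Homo-M-0190 or without WT-M-0202, *Acat2* and *Abcg1* were called, and the share of all genes called rose as well, from 2.82% to 8.16%, 3.85% and 5.82% in turn. The adjusted p ran from 0.0188 to 0.0461 for *Acat2* and from 0.0188 to 0.0495 for *Abcg1*. With both Het-F-0206 and Het-M-0199 left out, the libraries with *Bin1* in the Homo range, 0 of the 31 genes were called in each contrast, where 0% to 2.63% of all genes were called.

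Among the 4 genes of fatty acid synthesis none was called. *Scd2* (chr19:44293674-44306864, plus strand), the main desaturase here, had 20.3, 20.4, 23.9, 30.5 and 31.3 in WT males and 15.7, 16.8, 17.5, 21.5 and 22.3 in Homo males, where the last 2 are the late mice. The log2 fold change was -0.42 (SE 0.163, adjusted p = 0.132), and -0.34 in Het males (SE 0.156, adjusted p = 0.339). With number range as a term these were -0.22 and -0.23, and among late mice -0.17 and -0.19. *Fasn*, the fatty acid synthase, had 1.79, 2.00, 2.81, 4.02 and 4.25 in WT males and 1.12, 2.01, 2.07, 2.38 and 2.50 in Homo males. Its log2 fold change was -0.50 (SE 0.238, adjusted p = 0.207), -0.38 (SE 0.267) with number range as a term and -0.28 among late mice. Both pairs of groups overlapped. In females the log2 fold changes in Homo mice were -0.14 for *Scd2* and -0.27 for *Fasn*.

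*Scd1* (chr19:44394455-44407879, minus strand) had the lowest level of the 31 genes. Its values were 0.0161 to 0.0707 in WT males and 0.0251 to 0.512 in Het males, where the highest is Het-M-0108, while Het females went from 0 to 0.0865 against 0.0183 to 0.232 in WT females. Such values stand for few fragments. The fitted log2 fold change in Het males was 0.87 on the log2(scaled FPKM + 0.1) scale (SE 0.410, adjusted p = 0.341) and ran from 0.18 with a pseudocount of 1 to 1.62 with a pseudocount of 0.01, and without Het-M-0108 the gene was not tested.

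The other representatives of each role overlapped widely between genotypes. *Hmgcs1* (chr13:119690379-119708260, plus strand) had 8.08 to 13.8 in WT males, 8.03 to 11.9 in Het males and 7.68 to 13.8 in Homo males, and log2 fold changes of -0.17 in Homo males and 0.10 in Homo females (SE 0.155 and 0.164). In Homo males *Hmgcs1* changed sign, to 0.09 (SE 0.141) with number range as a term and 0.22 (SE 0.167) among late mice. *Sqle* had 0.867 to 1.13 in WT males, 0.321 to 1.08 in Het males and 0.569 to 1.51 in Homo males, with a log2 fold change of -0.07 (SE 0.303) in Homo males, and 0.21 (SE 0.321) in Homo females. The Homo male value of *Sqle* became 0.27 (SE 0.317) with the term and 0.28 (SE 0.364) among late mice. *Soat1*, which esterifies cholesterol for storage, had 22.5 to 34.3 in WT males and 22.3 to 35.4 in Homo males, and its 95% interval of the fold change, 0.820 to 1.19, excluded a 1.5-fold change in either direction in the fit without the term. Its log2 fold change went from -0.02 to 0.20 (SE 0.117) with the term and 0.27 (SE 0.131) among late mice.

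Because early numbers were held by Cre-positive males and by 1 WT female only, the 5 early and 6 late Het and Homo males were compared with genotype as a term. Of the 31 genes, 25 had lower and 6 had higher fitted values in early mice, and the median log2 fold change, early minus late, was -0.30, against 0.10 over all genes. At the adjusted threshold 7 genes were lower (background 5.81%): *Acat2*, *Hmgcs1*, *Ebp*, *Insig2*, *Mylip*, *Abcg1* and *Soat1*. *Tm7sf2*, a reductase of the sterol ring, was the only gene of the 31 that was higher (background 8.74%). *Ebp*, *Insig2*, *Mylip* and *Tm7sf2* are named here because of these values.

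*Tm7sf2* (chr19:6062821-6068373, minus strand) had 9.00, 11.3, 11.9, 13.6 and 16.6 scaled FPKM in early mice and 5.66, 5.92, 6.33, 6.35, 7.96 and 12.3 in late mice, where 12.3 is again Het-M-0203. The log2 fold change was 0.82 (SE 0.216, adjusted p = 0.0332). *Soat1* ranged from 21.0 to 26.6 (median 24.7) in early and from 26.5 to 35.4 (median 34.0) in late mice, a log2 fold change of -0.46 (SE 0.0998, adjusted p = 0.0236), with overlap at 1 late library. *Mylip* ranged from 72.5 to 82.7 in early and from 85.0 to 114 in late mice, a log2 fold change of -0.37 (SE 0.0906, adjusted p = 0.0290). *Insig2* had 26.6 to 29.7 against 31.5 to 37.1, at -0.30 (SE 0.0705, adjusted p = 0.0274).

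The early mice also had 4.23 to 5.71 for *Acat2* against 6.88 to 8.47 in late mice, at -0.61 (SE 0.121, adjusted p = 0.0219). For *Hmgcs1* the ranges were 7.68 to 9.52 and 8.39 to 13.8, at -0.44 (SE 0.128, adjusted p = 0.0425), for *Ebp* 25.8 to 35.9 and 30.97 to 48.4, at -0.42 (SE 0.125, adjusted p = 0.0450), and for *Abcg1* 20.2 to 29.1 and 24.2 to 44.9, at -0.56 (SE 0.160, adjusted p = 0.0404). *Insig1* had -0.40 (SE 0.229, adjusted p = 0.237) and *Srebf2* -0.45 (SE 0.162, adjusted p = 0.0787).

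**Figure D4:**
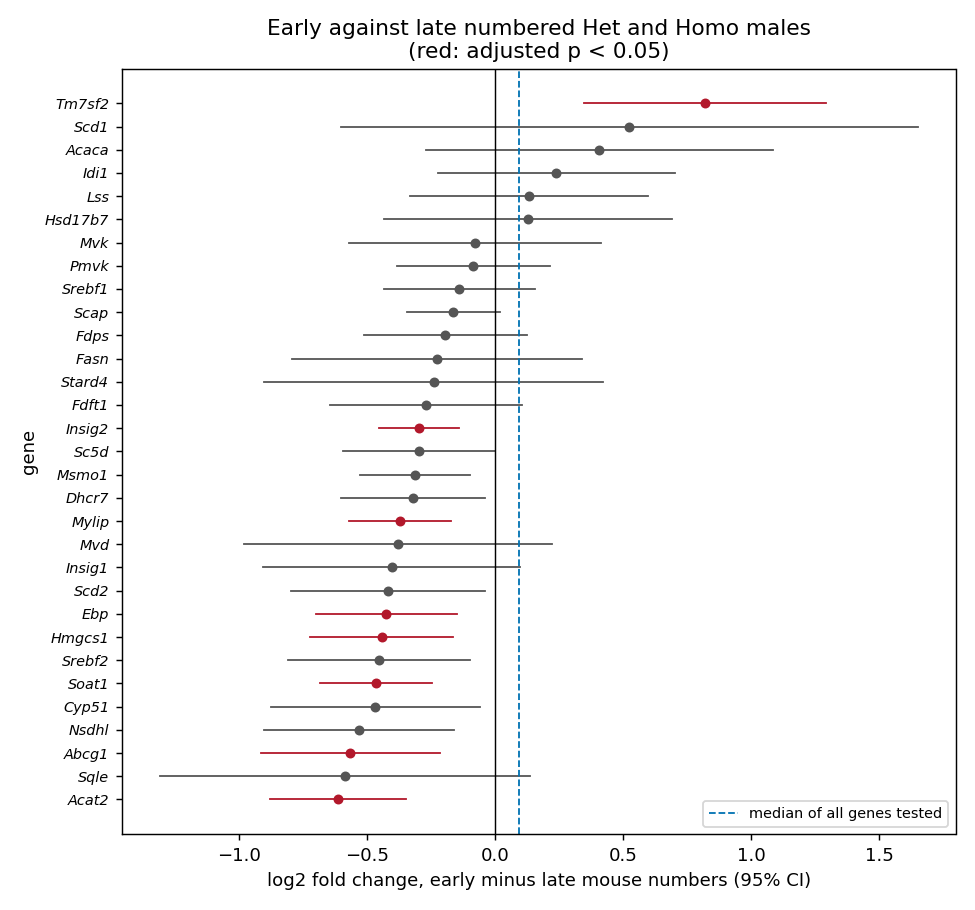
Log2 fold changes, early minus late mouse numbers (x axis), of the 31 genes in 11 Cre-positive males, with 95% confidence intervals, red where the adjusted p is below 0.05, and a dashed line at the median over all genes tested, 0.10. *Tm7sf2* is the highest, at 0.82, and 25 of 31 genes lie below 0.

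Counts of calls in the comparison of early and late mice rested on few libraries. They fell from 8 to 0 without Het-M-0100, without Het-M-0108, without Homo-M-0189 or without Homo-M-0190. They were 1 without Het-M-0210 or Homo-M-0093, 2 without Homo-M-0109, 3 without Het-M-0199 and 4 without Het-M-0197, and rose to 14 without Het-M-0203. Without Homo-M-0097, 9 genes were called lower and 1 higher. The share of all genes called moved with these counts. It was 14.6% in both directions together with all libraries in, from 0.00595% to 3.15% in the 4 fits with 0 of the 31 called, and from 2.73% to 5.97% in the 5 fits with 1 to 4 called. It was 17.7% without Homo-M-0097 and 28.7% without Het-M-0203. Between 24 and 26 of the 31 genes had lower values in early mice in every one of these fits, against 22 without scaling and 27 with quantile normalization. Other measures moved with the number range as well, and their part in these values was not tested. The summed level of 8 microglial marker genes had a median of 12651 in early and 17457 in late mice, with 0 of 8 genes called. The sum of 5 astrocyte genes was 2.44 to 25.6 against 1.94 to 7.13, with 2 genes called higher in early mice, and that of 6 neutrophil genes 0.0888 to 163 against 0 to 13.6, with 1 called higher. Of 6 oligodendrocyte genes 2 were called higher, of 5 border macrophage genes 1, and of 4 endothelial genes 1 was called lower, while *Cldn5* and *Ly6c1* had medians of 0 in both sets. In bulk RNA fewer cells of a type and less RNA per cell cannot be told apart. The mean log2 level of 1754 long noncoding genes minus that of 12592 coding genes had a median of -2.58 in early and -3.11 in late mice, and relative depth was 0.684 to 0.940 in early and 0.720 to 1.09 in late mice.

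Deviations from the group means were then compared between genes over the 30 libraries, as a description. Pearson's coefficient had a median of 0.23 over the 465 pairs of the 31 genes, with 332 pairs above 0, and 0.19 over the 153 pairs of the 18 enzymes, against 0.006 over all pairs of genes tested. All pairs share the same libraries. With number range removed too, the medians were 0.106 and 0.0961. *Soat1* and *Cyp51* had the highest median coefficients with the other 30 genes, 0.52 and 0.48, followed by *Abcg1* at 0.45 and *Srebf2* at 0.43. *Tm7sf2* ran the other way, with a median of -0.52 and a negative coefficient with 27 of the 30, and *Acaca* had -0.23. The plot of coefficients shows *Tm7sf2* as a blue band across the map.

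**Figure D5:**
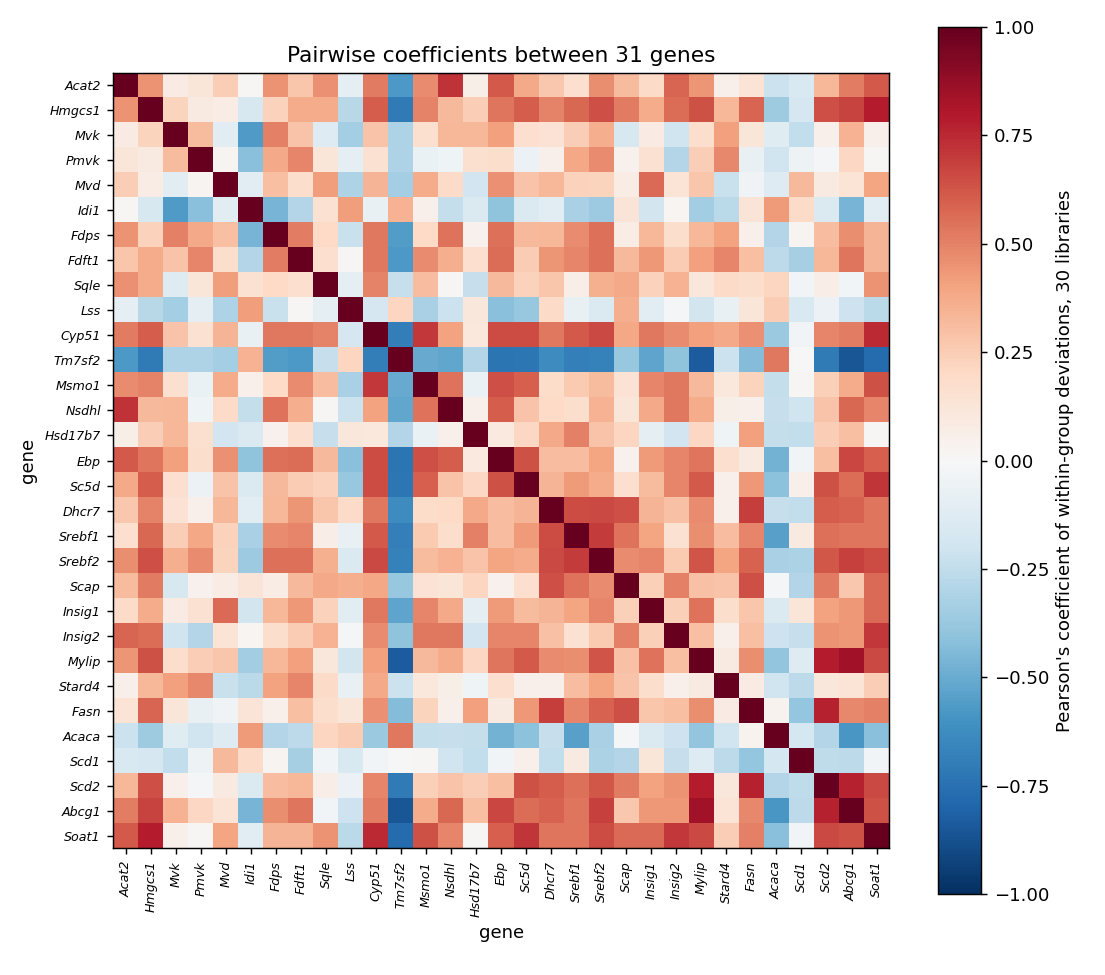
Pearson's coefficients (colour, -1 to 1) between within-group deviations of the 31 genes over 30 libraries, with genes in order of role on both axes. Most pairs lie above 0 (332 of 465), and *Tm7sf2* is negative with 27 of the other 30 genes.

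The wider lipid pathway was read from 30 further genes, of which 29 were tested. In Homo males 1 was higher and 1 was lower, 2 of 29 beside the 2.82% of all genes called there, and 0 were called in the other contrasts of genotype. *Plin2* (chr4:86648386-86670060, minus strand), which coats lipid droplets, fell in Homo males. Its values were 20.7, 21.4, 21.9, 22.4 and 25.0 in WT and 13.6, 13.7, 13.9, 14.2 and 16.6 in Homo males, without overlap, and 14.0 to 20.8 in Het males. The log2 fold change was -0.63 (SE 0.104, adjusted p = 0.00151). The 2 late Homo males, at 13.7 and 14.2, were among the low values. *Plin2* was called with each Homo or WT male left out in turn (adjusted p from 0.00110 to 0.00913) and with number range as a term (-0.57, adjusted p = 0.0248), and with late mice alone it was -0.66 (adjusted p = 0.0612). In females *Plin2* was 20.4 to 23.5 in WT, 18.1 to 24.3 in Het and 15.4 to 21.2 in Homo.

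*Mbtps2*, the protease that makes the second cut in the SREBP, rose in Homo males by a log2 fold change of 0.47 (SE 0.133, adjusted p = 0.0482), from 9.05 to 11.9 in WT to 11.4 to 20.2. The 3 early Homo males had 13.9, 15.5 and 20.2 and the 2 late ones 11.4 and 12.3, beside a WT maximum of 11.9. The call was lost without any 1 of Homo-M-0093, Homo-M-0097, Homo-M-0109, WT-M-0176, WT-M-0177, WT-M-0178 and WT-M-0258 (log2 fold changes from 0.35 to 0.49, adjusted p from 0.0768 to 0.174), and among late mice alone the value was 0.20 (adjusted p = 0.823). In the same contrast 4 of 6 neutrophil genes (*Ngp*, *S100a9*, *Ltf* and *Lcn2*) were lower, with a summed level of 46.0 to 342 in WT and 0 to 73.1 in Homo males, as was the heat shock gene *Hspa1b*. Of 6 oligodendrocyte genes *Cnp* was called lower, at -0.49, while the other 5 had values above 0 and were not called, and the median of the 6 was 0.54. Their part in the lipid genes was not tested. Of the microglial marker genes 0 of 8 were called, but 6 had values below 0 and 2 above, with a median of -0.25. *Cx3cr1* was 657 to 1137 scaled FPKM in Homo males, below the 1796 to 2429 of WT males.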

How the data were processed

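Microglial RNA of 30 mice was sequenced by the authors. They aligned reads to mm10, estimated abundance with RSEM and deposited FPKM without a logarithm. Labels name 2 library kits. The table holds 47643 genes, and 6 further columns that match no listed sample were not used. The number of reads behind a value is unknown, and counting error is left out. FPKM were divided by median-of-ratios factors (genes with a mean of at least 1), genes with a mean of at least 0.1 were kept (16897), and log2(scaled FPKM + 0.1) was fitted over the 6 groups with limma 3.58.1 (R 4.3.3, trend, Benjamini-Hochberg). The DESeq2 fit of the authors needs counts, which were not analysed here. Fold changes of low genes are understated on this scale. Replicates are single mice. Early and late Cre-positive males were fitted with genotype as a term. Values by library, ranges over libraries or group means are given for the 8 members with the smallest unadjusted p in a genotype contrast and for fixed representatives of each role. The members and lists were chosen with earlier results of these data known. Scripts were tested on simulated data. Gene positions are from GENCODE M21 and promoters from RefSeq, both on GRCm38.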

Additional observations from a re-analysis of the deposited data

Results flagged for a closer look

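In 186 sets of values, 1 for each gene and group, the highest or lowest library was set against the nearest other by Dixon's criterion, which flags about 1 in 20 by chance, and 10 stood apart. Homo-F-0193 was lowest of its group for *Fdps* (14.5 scaled FPKM, next 16.9), *Pmvk* (5.45, next 6.71) and *Srebf1* (12.3, next 15.5). Homo-M-0109 was lowest for *Dhcr7* (8.49, next 11.5) and highest for *Scd1* (0.515, next 0.136). Het-F-0206, one of the libraries with *Bin1* in the Homo range, was highest for *Sqle* (2.23, next 1.20). Homo-F-0238 was highest for *Cyp51* (7.30, next 5.74), WT-F-0200 for *Ebp* (48.3, next 44.1) and WT-M-0258 for *Pmvk* (9.25, next 6.62). Het-M-0100 was lowest for *Msmo1* (22.6, next 31.3). No difference of a genotype effect between the sexes passed the adjusted threshold for any of the 31 genes.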

How the results depend on the processing

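In Homo males the number of genes called was 2 with a minimum mean FPKM of 1 (*Acat2* and *Abcg1*), 1 without scaling (*Insig1*), 1 with quantile normalization (*Acat2*) and 2 with array weights (*Insig1* and *Abcg1*), and 0 to 2 with single libraries left out. The shares of all genes called in the first 4 fits were 5.53%, 2.52%, 3.44% and 5.40%, against 2.82%. Over the alternatives run in Homo males, adjusted p ranged from 0.0188 to 0.909 for *Acat2*, from 0.0188 to 0.874 for *Abcg1* and from 0.0331 to 0.361 for *Insig1*. The directions of these 3 genes in Homo males did not change, and the counts of the other contrasts stayed at 0 under the alternatives run. When number range was a term, the median log2 fold change in Homo males was 0.0586 over the 31 genes and 0.0885 over the enzymes, both from -0.07, moves that exceed the SD between replicates of 0.12. Without scaling the median of all genes in Homo males moved to 0.11. The cause was not tested. Early against late, alternatives chosen after seeing the data gave 2 calls with no filter (0.446% of all genes called) and 3 without scaling (14.7%). The median log2 fold change of the 31 genes without scaling was -0.15, against 0.23 over all genes. In the main fit these medians were -0.30 and 0.10. A minimum mean FPKM of 1 gave 9 genes lower and 1 higher (26.7%), and quantile normalization gave 8 lower and 1 higher (11.8%). Calls numbered 0 to 14 with single libraries left out. In that comparison *Mvk*, *Pmvk* and *Srebf1* changed sign without scaling, *Lss* and *Hsd17b7* with quantile normalization, *Mvd*, *Lss* and *Hsd17b7* without Het-M-0100, and *Mvk* without Het-M-0199, and none of these 6 was called with all libraries in. Between genotypes, members with an unadjusted p below 0.05 in a contrast kept their sign there, and with number range as a term 11 of the 31 genes changed sign in Homo males, 5 in Het males, 9 in Homo females and 11 in Het females. No paired analysis was possible because each mouse number occurs once. The low levels of *Scd1*, *Sqle*, *Stard4*, *Hsd17b7* and *Acaca* limit what they can show.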
